A study of Mus musculus with 10 samples.

Results

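The 9 transcription factors that build the oligodendrocyte lineage, Olig1, Olig2, Nkx2-2, Sox8, Sox10, Zfp488, Myrf, Nkx6-2 and Tcf7l2, are described here in injured neonatal mouse brain with and without allopregnanolone. The 9 genes were taken by symbol from the 55471 Ensembl gene identifiers of the deposited table, each had 1 identifier, and all 9 passed the filter on low counts, which 17101 genes passed. The first group was 5 Swiss Webster pups (genotype WT) with a hypoxic-ischemic brain injury that received allopregnanolone, a neurosteroid of the progesterone pathway and a positive modulator of GABA-A receptors. The other group was 5 WT Swiss Webster pups with the same injury and no treatment, per the labels. Neonatal day 5 is given for all pups, and whether it dates the injury or the collection is not settled here. All 10 pups thus carried the injury, and the values compare treated with untreated injured brains. Each pup gave 1 library from brain RNA, numbered 6 to 10 for allopregnanolone and 1 to 5 for untreated pups, and the labels do not say whether litters were shared or whether the untreated pups received a vehicle.

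Oligodendrocytes wrap axons in myelin and arise from dividing precursor cells. Olig2, a basic helix-loop-helix factor, specifies the lineage, and its relative Olig1 acts in the maturation and repair of oligodendrocytes. Sox10 and Sox8 are related HMG-box factors of the SoxE group, of which Sox10 switches on myelin genes and acts together with Olig2. Nkx2-2 is a homeodomain factor of precursors about to differentiate, and Zfp488 is a zinc finger factor that works with Olig2. Myrf, a membrane-bound factor that cuts itself free to enter the nucleus, is needed for the last step, in which the genes of myelin are switched on, and Nkx6-2 is a homeodomain factor of cells at that step. Tcf7l2 carries WNT signals to DNA in newly forming oligodendrocytes and is also a factor of thalamic neurons.

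RefSeq promoter windows on GRCm38.p6, from 250 bases before to 50 bases after a start, were at hand for 6 of the 9 genes, with 2 starts for Tcf7l2. Of the 7 windows 4 are shown, for the factor that changed most (Nkx6-2), the one that varied least (Sox8), the one that marks the whole lineage (Olig2) and the one with no call and a pattern of its own (Tcf7l2). Nkx6-2 is at chr7:139582748-139583047 (minus strand) and Sox8 at chr17:25570637-25570936 (minus strand). Olig2 is at chr16:91225300-91225599 (plus strand) and the upstream start of Tcf7l2 at chr19:55741560-55741859 (plus strand). Capitals mark every match, on either strand, to the core letters of sites known for the family's own proteins. They are ACAANG for SOX proteins, CANCTG for OLIG proteins (an E-box), CTTTGA for TCF7L2, CTGGNAC for MYRF and TNAAGTG for NKX2 proteins. The E-box can share letters with the MYRF motif, as it does in the Zfp488 window. All are written 5′ to 3′ along the gene.
Nkx6-2: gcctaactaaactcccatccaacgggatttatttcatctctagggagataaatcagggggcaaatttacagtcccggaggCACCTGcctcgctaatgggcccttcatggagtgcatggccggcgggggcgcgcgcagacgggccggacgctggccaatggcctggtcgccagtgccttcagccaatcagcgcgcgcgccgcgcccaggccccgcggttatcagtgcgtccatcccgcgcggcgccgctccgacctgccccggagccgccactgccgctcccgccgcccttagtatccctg
Sox8: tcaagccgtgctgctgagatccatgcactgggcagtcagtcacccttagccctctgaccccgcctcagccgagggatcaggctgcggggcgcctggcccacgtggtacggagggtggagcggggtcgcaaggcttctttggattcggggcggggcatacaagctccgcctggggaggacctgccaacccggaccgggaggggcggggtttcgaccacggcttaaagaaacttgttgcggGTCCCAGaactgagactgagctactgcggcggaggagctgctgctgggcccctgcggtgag
Olig2: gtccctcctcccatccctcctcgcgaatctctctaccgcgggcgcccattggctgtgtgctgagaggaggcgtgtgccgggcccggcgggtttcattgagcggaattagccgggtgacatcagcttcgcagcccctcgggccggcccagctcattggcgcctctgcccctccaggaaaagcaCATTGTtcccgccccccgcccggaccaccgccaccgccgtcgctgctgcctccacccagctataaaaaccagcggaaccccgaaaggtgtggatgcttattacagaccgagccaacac
Tcf7l2: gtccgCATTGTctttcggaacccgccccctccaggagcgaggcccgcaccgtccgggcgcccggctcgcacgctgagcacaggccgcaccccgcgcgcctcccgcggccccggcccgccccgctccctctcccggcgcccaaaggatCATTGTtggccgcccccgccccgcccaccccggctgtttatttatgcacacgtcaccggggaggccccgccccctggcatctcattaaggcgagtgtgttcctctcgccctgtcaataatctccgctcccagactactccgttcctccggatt

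The windows are rich in G and C, at 66.7% for Nkx6-2, 66.3% for Sox8, 65.0% for Olig2 and 70.0% for this Tcf7l2 start, against a median of 52.7% over 32851 windows. The capitals in Nkx6-2 are an E-box, found in 51.4% of all windows, and those in Sox8 a MYRF motif, found in 19.3%. Olig2 holds 1 SOX match and the Tcf7l2 start 2, a motif of 41.2% of all windows. The TCF7L2 motif is in none of the 7 windows of the family and in 16.0% of all windows. The NKX2 motif, in 11.5% of all windows, lies in the Nkx2-2 window and in that of the second Tcf7l2 start. Short motifs of this kind are common, and a match is a description of letters only.

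Library totals of estimated counts ran from 18656827 to 34270699. The 9 genes had between 46 counts (the lowest library for Nkx6-2) and 11542 counts (the highest for Olig1). The labelled tissue is whole brain, but markers of the hindbrain and spinal cord were near 0, as all 11 missed the filter and together reached 0.185 to 4.53 units of counts relative to library size (CPM) in treated and 0.178 to 0.277 CPM in untreated libraries. Of 10 cerebellum markers 7 passed the filter with none called, and the 10 summed to 166 to 221 CPM in treated and 156 to 209 CPM in untreated libraries. The largest parts of this sum were Calb1 (on average 67.1 CPM in treated and 61.8 CPM in untreated libraries) and Cbln1 (44.0 and 42.5 CPM). The sum therefore does not show changes in the scarce markers given next. Within this list Cbln3 was at 2.95 and 4.46 CPM in treated libraries 9 and 10 and at most 1.16 CPM elsewhere. Pcp2 was at 2.03 and 2.11 CPM in these libraries, against at most 0.358 CPM elsewhere. Gabra6 was at 1.11 and 1.05 CPM, against at most 0.172 CPM elsewhere. Pcp2 and Gabra6 missed the filter, and the rest of the list did not set both libraries apart. Of 9 hypothalamus markers tested 1, Pmch, was called higher, at 3.55 to 11 CPM in treated and 0.547 to 1.78 CPM in untreated libraries. The 10 listed summed to 34.1 to 66.1 CPM in treated and 17.6 to 54.3 CPM in untreated libraries. Midbrain markers had the most calls of the brain region lists, 11 of 13 tested being higher with allopregnanolone. Leaving out Nr4a2, which cortical neurons also express, these markers summed to 133, 101 and 71.8 CPM in treated libraries 6, 7 and 9 and to 23.6 and 25.4 CPM in treated libraries 8 and 10, against 12 to 28.7 CPM in untreated libraries. Genes of Schwann cells, the other myelin-forming cells that use Sox10, gave no call in 7 tested, and the 10 listed summed to 156 to 206 CPM in treated and 169 to 183 CPM in untreated libraries. Of 11 astrocyte markers 6 were higher, and their sum was 3600 to 4050 CPM in treated and 2730 to 3160 CPM in untreated libraries. The library names of untreated pups 1 to 3 carry another prefix than the rest, so that within 1 prefix only untreated libraries 4 and 5 remain for comparison.

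Of the 9 factors 6 rose with allopregnanolone and none fell. Nkx6-2 and Myrf, the factors of the last step, had the largest changes, at 2.28-fold and 1.82-fold. Olig1, Sox10, Sox8 and Olig2 rose 1.40-fold, 1.38-fold, 1.30-fold and 1.29-fold. Nkx2-2, Zfp488 and Tcf7l2 did not pass the threshold, an adjusted p under 0.05 in edgeR's quasi-likelihood test with Benjamini-Hochberg adjustment over all genes tested. Over all genes 6.61% were called higher and 4.65% lower, 11.3% in either direction. The median log2 fold change (allopregnanolone over untreated) was 0.44 over the 9 factors and -0.0050 over all genes. In RNA of a whole tissue, more cells of the lineage and more RNA per cell cannot be told apart.

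**Figure D1:**
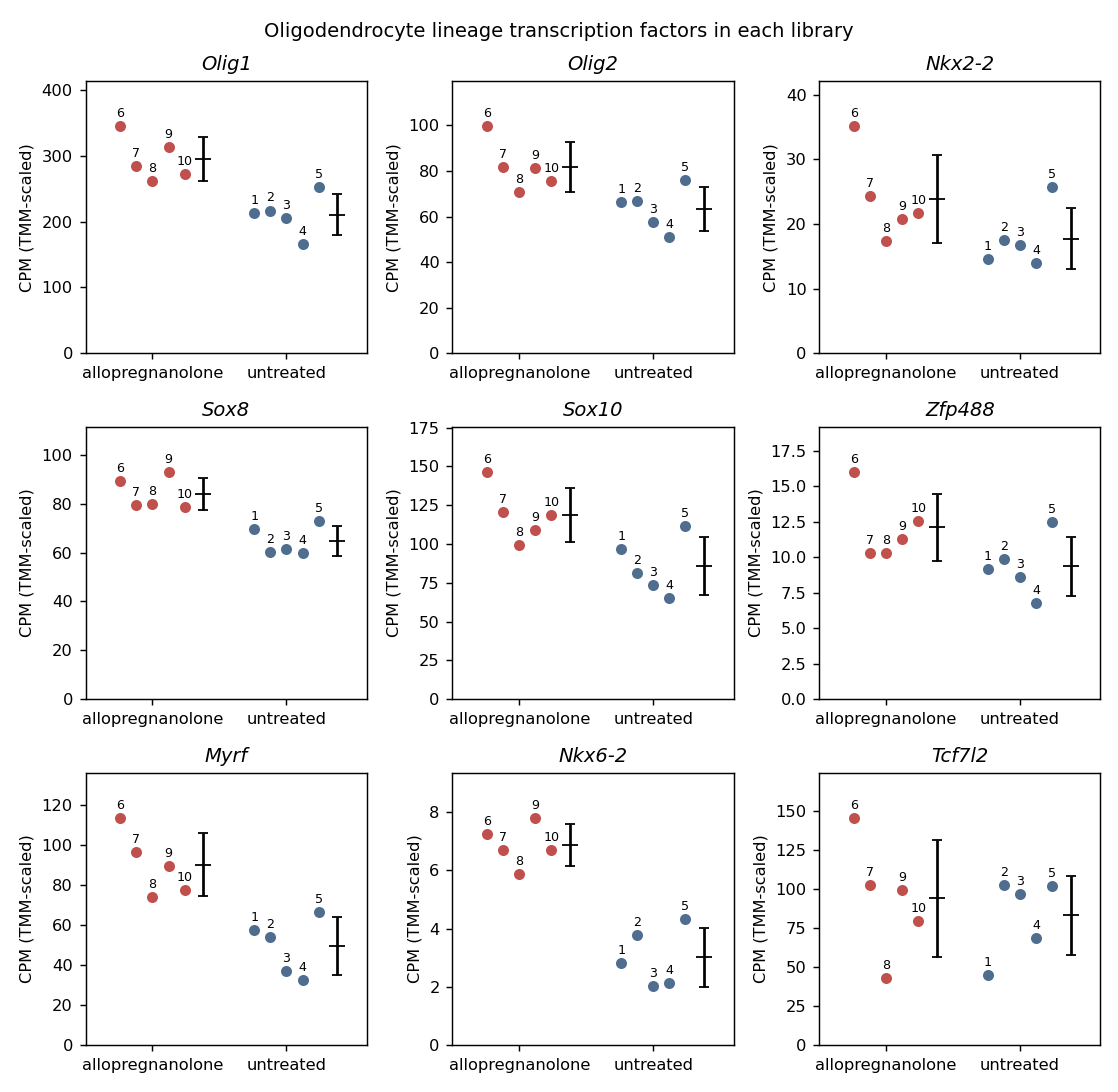
Level of each of the 9 factors in CPM scaled by TMM in every library (numbered points), with the mean and SD of 5 libraries beside each group. Treated points lie above all untreated points for Olig1, Sox8, Myrf and Nkx6-2, while the groups overlap for the other 5 factors.

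The Olig pair and Nkx2-2 are described first. Olig1 (ENSMUSG00000046160, chromosome 16, 91269772 to 91271933 on GRCm38) was at 344, 284, 262, 313 and 273 CPM in treated libraries 6 to 10, against 212, 217, 205, 166 and 252.2 CPM in untreated libraries 1 to 5. Every treated library lay above every untreated one, a separation in this direction that 5.44% of all genes tested showed. The means were 295 ± 33.4 CPM with allopregnanolone and 210 ± 31.0 CPM untreated (SD, n = 5 each), a log2 fold change of 0.49 (SE 0.10, adjusted p = 0.00858, edgeR). Olig2 (ENSMUSG00000039830, chromosome 16, 91225457 to 91228677) lies on the same chromosome and was at 99.5, 81.8, 70.6, 81.2 and 75.5 CPM in treated libraries, against 66.5, 66.7, 57.4, 50.8 and 75.9 CPM in untreated libraries. Treated libraries 8 and 10 were below untreated library 5, and the other 3 treated libraries were above all untreated ones. Olig2 rose by 0.37 on the log2 scale (SE 0.11, adjusted p = 0.0411, edgeR), close to the threshold. Olig2 passed without untreated library 5 or without treated library 8, and missed the threshold when any other single library was left out, with adjusted p between 0.0521 and 0.101.

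Nkx2-2 (ENSMUSG00000027434, chromosome 2, 147177546 to 147194243) had 35.1, 24.3, 17.4, 20.8 and 21.6 CPM in treated libraries, against 14.6, 17.5, 16.7, 14.0 and 25.8 CPM in untreated libraries. The groups overlapped, with treated library 6 the highest of all and untreated library 5 above the 4 other treated libraries. The log2 fold change was 0.44 with a 95% interval of 0.03 to 0.84 (adjusted p = 0.153, edgeR). Without untreated library 5 it was 0.61 and passed the threshold (adjusted p = 0.0309, edgeR), and without treated library 6 it was 0.24 (adjusted p = 0.360). Exons of the antisense gene Nkx2-2os cover 9.67% of its exon bases. The strand setting of the counting is unknown here, so reads of such a pair may not be told apart, and this holds for Olig1 (7.26% covered), Sox8 and Nkx6-2 too.

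Of the SoxE pair, Sox8 (ENSMUSG00000024176, chromosome 17, 25565892 to 25570686) varied least from library to library. It was at 89.2, 79.3, 79.9, 92.9 and 78.6 CPM in treated libraries, against 69.7, 60.1, 61.3, 60.0 and 72.9 CPM in untreated libraries. All treated libraries were above all untreated ones, and the SD was 7.87% of the mean with allopregnanolone and 9.34% untreated. Sox8 rose by 0.37 on the log2 scale (SE 0.07, adjusted p = 0.00606, edgeR). Exons of a gene on the opposite strand cover 10.6% of the exon bases of Sox8.

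Sox10 (ENSMUSG00000033006, chromosome 15, 79154908 to 79165240) was at 146, 121, 99.2, 109 and 119 CPM in treated libraries, against 96.8, 81.5, 73.8, 65.4 and 112 CPM in untreated libraries. Untreated library 5 was above treated libraries 8 and 9, and the other 4 untreated libraries were below every treated one. The log2 fold change of 0.47 (SE 0.13) passed with adjusted p = 0.0371 in edgeR's test. It passed when untreated library 1 or 5 or treated library 8 or 9 was left out, and missed the threshold without any of the other 6 libraries, with adjusted p between 0.0659 and 0.0930.

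Zfp488 (ENSMUSG00000044519, chromosome 14, 33967070 to 33978764) had 16.0, 10.3, 10.3, 11.3 and 12.6 CPM in treated libraries, against 9.18, 9.87, 8.59, 6.75 and 12.5 CPM in untreated libraries. Treated libraries 6 and 10 were above all untreated libraries, and untreated library 5 was above the 3 others. The log2 fold change was 0.38, with a 95% interval of 0.03 to 0.72 (adjusted p = 0.144, edgeR). Without untreated library 5 it was 0.50 and passed (adjusted p = 0.0435, edgeR), and without treated library 6 it was 0.24 (adjusted p = 0.316).

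The factors of the last step changed more. Myrf (ENSMUSG00000036098, chromosome 19, 10208272 to 10240748) was at 113, 96.6, 74.0, 89.3 and 77.6 CPM in treated libraries, against 57.5, 54.1, 37.2, 32.3 and 66.5 CPM in untreated libraries. The groups did not overlap, and the highest untreated library, 5, came close to the lowest treated one, 8. The means were 90.2 ± 15.8 CPM with allopregnanolone and 49.5 ± 14.3 CPM untreated (SD, n = 5 each), a log2 fold change of 0.87 (SE 0.17, adjusted p = 0.00803, edgeR). Nkx6-2 (ENSMUSG00000041309, chromosome 7, 139579376 to 139582797) was the least abundant, at 7.25, 6.70, 5.86, 7.80 and 6.71 CPM in treated libraries, against 2.81, 3.79, 2.02, 2.13 and 4.32 CPM in untreated libraries. All treated libraries were higher, in a narrow band, while the untreated ones differed among themselves, with an SD of 10.5% of the mean with allopregnanolone and 33.7% untreated. Its log2 fold change of 1.19 (SE 0.20, adjusted p = 0.00283, edgeR) was the largest of the 9. Exons of Inpp5a on the opposite strand cover 12.9% of its exon bases.

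Tcf7l2 (ENSMUSG00000024985, chromosome 19, 55741820 to 55933654) did not follow the others. It was at 145, 103, 42.7, 99.2 and 79.3 CPM in treated libraries, against 44.8, 103, 96.7, 68.8 and 102 CPM in untreated libraries. Treated library 8 and untreated library 1 were the lowest, and treated library 6 was the highest of all 10. The log2 fold change was 0.18, with a 95% interval of -0.40 to 0.77 (adjusted p = 0.717, edgeR), and its sign turned without treated library 6 (log2 fold change -0.04).

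**Figure D2:**
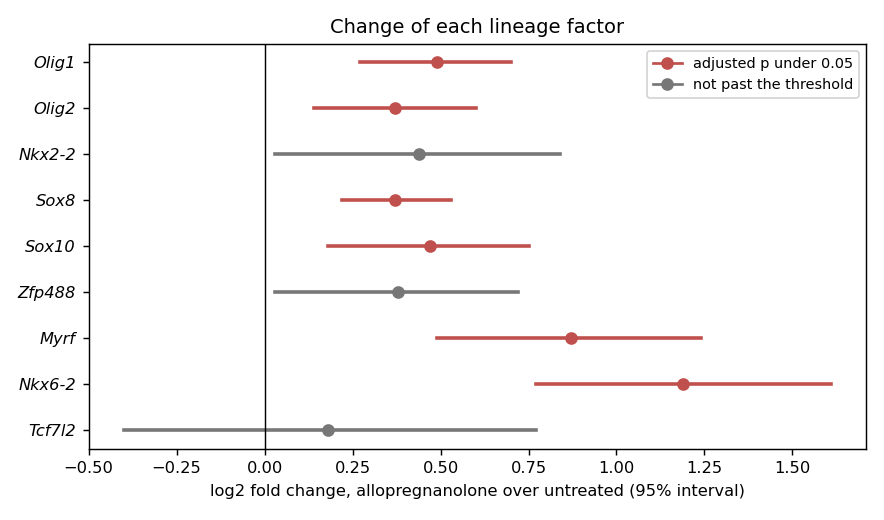
Log2 fold change of each factor, allopregnanolone over untreated, with its 95% interval. Nkx6-2 (1.19) and Myrf (0.87) lie farthest to the right, and the interval of Tcf7l2 (-0.40 to 0.77) spans 0.

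Whether Myrf changed more than Olig2 was tested with the log2 ratio of the 2 genes in each library. The pair was chosen with earlier results of these data known, so the p-value below is no independent support. The log2 ratio of Myrf to Olig2 was 0.19, 0.24, 0.07, 0.14 and 0.04 in treated libraries, against -0.21, -0.30, -0.63, -0.65 and -0.19 in untreated libraries. Myrf thus exceeded Olig2 in CPM in all treated libraries and in no untreated one. The means were 0.13 ± 0.08 with allopregnanolone and -0.40 ± 0.23 untreated (SD, n = 5 each), a difference of 0.53 (two-sided exact permutation test over all assignments of libraries to groups, p = 0.00794, the smallest this design allows). Leaving out any single library gave differences of 0.47 to 0.58. Of the other factors, whose ratios to Olig2 were not tested, Nkx6-2 shifted by 0.87 on this scale with no overlap of the groups. Olig1, Sox10, Nkx2-2, Zfp488 and Sox8 shifted by 0.13, 0.11, 0.05, 0.01 and 0.01 and Tcf7l2 by -0.23, each with overlapping groups. Myrf also varied more than Olig2 within groups. With the group mean taken off, log2 CPM in untreated libraries ran from -0.56 to 0.48 for Myrf and from -0.31 to 0.27 for Olig2. In treated libraries it ran from -0.27 to 0.35 and from -0.20 to 0.29. Whether the ratio follows the level of the lineage as a whole was not tested.

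**Figure D3:**
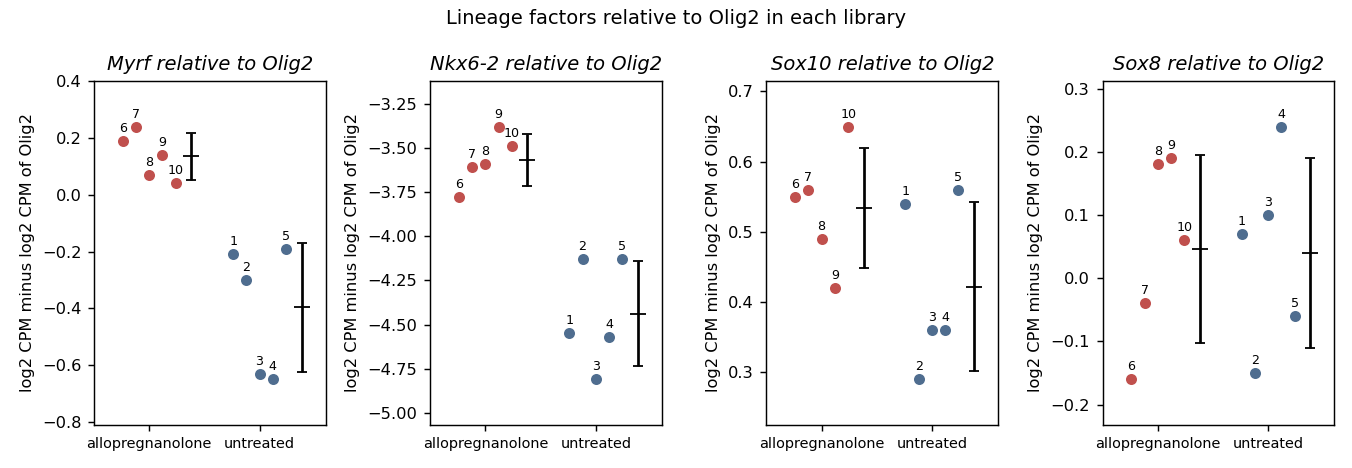
Log2 CPM of Myrf, Nkx6-2, Sox10 and Sox8 minus that of Olig2 in each numbered library, with mean and SD of 5 libraries. The groups separate for Myrf (0.13 and -0.40 on average in treated and untreated libraries) and for Nkx6-2, and overlap for Sox10 and Sox8.

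Levels between genes were compared per kilobase of exon, on a scale of CPM per kb. Olig1 was the most abundant, at 136 ± 15.5 CPM per kb with allopregnanolone and 97.3 ± 14.3 untreated (SD, n = 5 each). Sox10, Olig2 and Sox8 followed at 38.9, 32.3 and 26.9 CPM per kb on average in treated and 28.1, 25.1 and 20.8 in untreated libraries, with ranges over libraries that overlap between neighbours. Tcf7l2, Myrf and Nkx2-2 formed a lower tier at 10.7, 10.5 and 8.29 CPM per kb in treated and 9.46, 5.78 and 6.16 in untreated libraries, again overlapping. Nkx6-2 and Zfp488 were lowest, and the order of their means differed between the groups, with overlapping ranges in both. Nkx6-2 ranged from 3.07 to 4.09 CPM per kb in treated and from 1.06 to 2.26 in untreated libraries, and Zfp488 from 2.40 to 3.72 in treated and from 1.57 to 2.90 in untreated libraries. The length used is that of all annotated exons together, so genes with long or unused exons, such as Myrf and Tcf7l2, may be placed too low.

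The factors other than Tcf7l2 also varied together among pups of the same group. With the group mean taken off log2 CPM, Olig1, Olig2, Sox10 and Myrf correlated with each other at Pearson r of 0.85 to 0.96 over 10 libraries. The 28 pairs without Tcf7l2 ranged from 0.48 to 0.96, and the 8 pairs with Tcf7l2 from 0.16 (with Sox8) to 0.78 (with Nkx2-2). These are descriptions, since all genes of a library share its depth and its tissue. Untreated library 5 was the highest untreated library for 8 of the 9 factors and untreated library 4 the lowest for 7. Treated library 6 was the highest treated library for 7 factors and treated library 8 the lowest for 7.

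**Figure D4:**
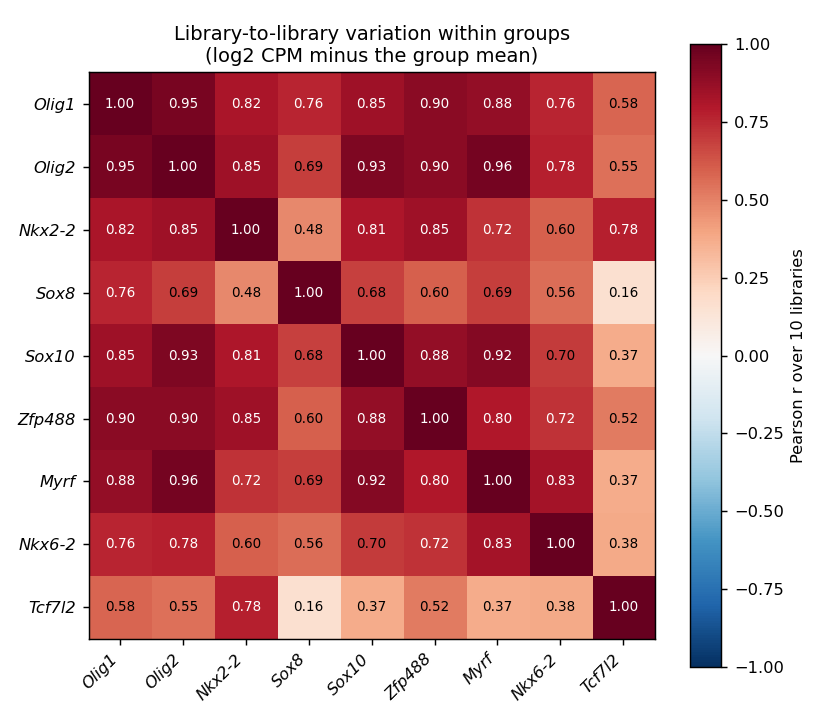
Pearson r between factors over 10 libraries, on log2 CPM minus the group mean. The values among Olig1, Olig2, Sox10 and Myrf are 0.85 to 0.96, and the row of Tcf7l2 is paler, down to 0.16.

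The genes whose within-group pattern was most like that of the mean of the 9 factors were Phactr4, Snrpa and Pcdhgc4 (r = 0.985, 0.978 and 0.975), with Parvb, Eif2d, Sparc and Chrna4 among the next. For Myrf they were Fa2h, which hydroxylates the fatty acids of myelin lipids, and the adhesion molecule neurofascin, Nfasc, at r = 0.994 and 0.993. For Nkx6-2 they were Mal, a proteolipid of myelin, and Egfl6, and for Olig2 the deacetylase Sirt2 and Parvb. Among the nearest were Sidt2 and Rnf122 to Olig1, Acy3 and Cpt2 to Sox8, the glial adhesion molecule Hepacam to Sox10, Ccdc92 and Sf3a2 to Nkx2-2, and Jund and Sema5a to Zfp488. For Tcf7l2 they were the glutamate receptor Grm4 (r = 0.982) and the homeobox gene Shox2 (r = 0.970). Tcf7l2 correlated within groups at r = 0.97 with the sum of 12 thalamus and habenula markers, a sum that ranged from 270 to 492 CPM in treated and from 250 to 392 CPM in untreated libraries. Myrf correlated at r = 0.28 with that sum and at r = 0.97 with the sum of 17 myelin genes, with which Tcf7l2 had r = 0.25. With the myelin sum the factors other than Myrf and Tcf7l2 ranged from r = 0.60 for Nkx2-2 to 0.90 for Olig2, and Nkx6-2 had 0.88. With the thalamus and habenula sum the factors other than Tcf7l2 ranged from r = 0.20 for Sox8 to 0.72 for Nkx2-2, and Olig1 had 0.54.

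**Figure D5:**
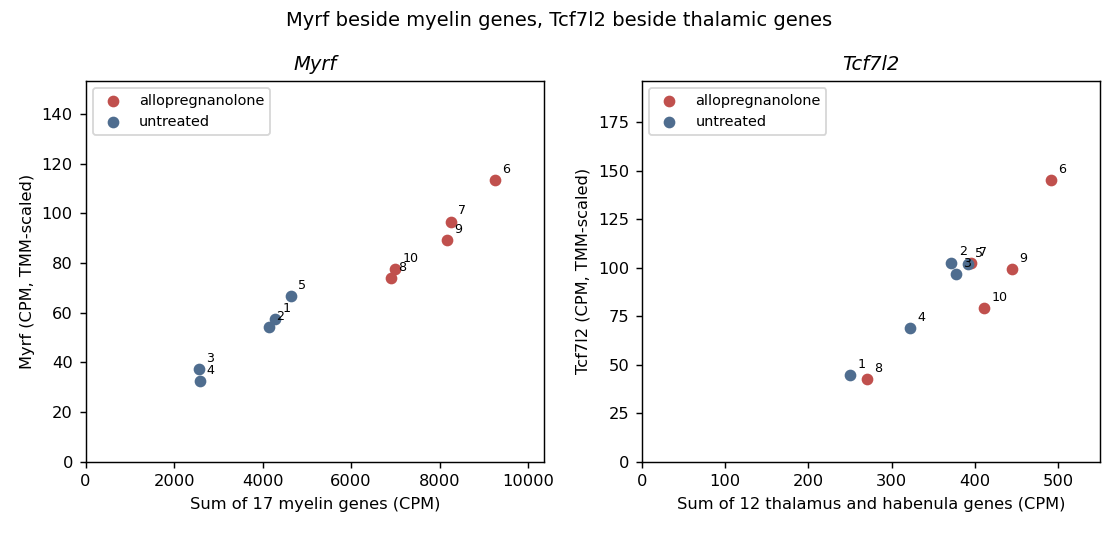
CPM of Myrf against the summed CPM of 17 myelin genes (left) and of Tcf7l2 against the summed CPM of 12 thalamus and habenula genes (right), 1 numbered point per library. The treated points form their own upper range for Myrf (74.0 to 113 CPM), whereas treated library 8 and untreated library 1 lie side by side at the bottom for Tcf7l2.

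Genes that Myrf and Sox10 are known to switch on moved with them. Of 17 such myelin genes 16 rose and none fell, with a median log2 fold change of 1.17, and 15 had no overlap between groups. They summed to 6900 to 9250 CPM in treated and 2560 to 4640 CPM in untreated libraries. Opalin, a membrane glycoprotein of mature oligodendrocytes, averaged 9.24 ± 1.40 CPM with allopregnanolone and 3.41 ± 1.09 CPM untreated (SD, n = 5 each, adjusted p = 0.00108, edgeR). Mal, the cytoskeletal linker Ermn and the tetraspanin Tspan2 rose 2.89-fold, 2.34-fold and 1.78-fold. The gene that did not pass was Aspa, which breaks down N-acetylaspartate, at 2.59 ± 0.816 CPM with allopregnanolone and 2.26 ± 0.606 CPM untreated (SD, n = 5 each, adjusted p = 0.636, edgeR). Aspa was named after its value was seen.

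Markers of precursors moved less uniformly, with 5 of 13 higher, 1 lower and a median log2 fold change of 0.09. The sialidase Neu4 rose 1.58-fold, and Bcas1, Enpp6 and the receptor Gpr17, which appear as precursors start to differentiate, rose 1.53-fold, 1.47-fold and 1.41-fold. Enpp6 lost its call without untreated library 3 (adjusted p = 0.0533, edgeR) or 4 (adjusted p = 0.0606). Pdgfra, the growth factor receptor that defines dividing precursors, averaged 78.4 ± 8.09 CPM with allopregnanolone and 83.1 ± 3.72 CPM untreated (SD, n = 5 each, adjusted p = 0.452, edgeR). The proteoglycan Cspg4 also rose, and the phosphatase Ptprz1, which astrocytes express too, fell to 432 ± 10.8 CPM with allopregnanolone, against 508 ± 53.6 CPM untreated (SD, n = 5 each, adjusted p = 0.0360, edgeR). Pdgfra, Cspg4 and Ptprz1 were named after their values were seen.

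Of 12 progenitor and patterning genes upstream of the lineage 1 rose and 1 fell, with a median log2 fold change of 0.01. Over all genes tested, 6.61% were called higher and 4.65% lower, and these shares are the background for the counts of every list. Dlx1, a factor of forebrain interneuron progenitors, fell to 37.7 ± 2.88 CPM with allopregnanolone, against 56.6 ± 16.6 CPM untreated (SD, n = 5 each, adjusted p = 0.0309, edgeR). Its relative Dlx2 averaged 20.0 CPM with allopregnanolone and 27.7 CPM untreated, and Pax6 averaged 10.0 and 12.8 CPM, and neither passed. Nkx6-1, a close relative of Nkx6-2, rose to 1.67 ± 1.31 CPM with allopregnanolone, against 0.505 ± 0.117 CPM untreated (SD, n = 5 each, adjusted p = 0.0362, edgeR). Its level was 3.31 and 2.87 CPM in treated libraries 6 and 7, which also had the highest hindbrain and spinal cord sums (4.53 and 2.76 CPM), and 0.508 to 0.844 CPM in the other 3 treated libraries. These 2 libraries also had the highest midbrain sums (133 and 101 CPM). With the mean of the midbrain markers as a covariate the log2 fold change of Nkx6-1 was 0.19 (adjusted p = 0.914, edgeR), against 1.74 without it. The part of region in the change of Nkx6-1 was not tested. Leaving out single libraries ended the call of Dlx1 in 5 of 10 cases and that of Nkx6-1 in 6. Sox9, the third SoxE gene, which astrocytes also express, averaged 44.9 ± 10.6 CPM with allopregnanolone and 45.2 ± 2.35 CPM untreated (SD, n = 5 each, adjusted p = 0.985, edgeR), and it was named after its value was seen.

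Among 12 genes that hold back differentiation, Sox5 fell and Klf4 rose, with a median log2 fold change of 0.07. Sox5, a SoxD factor that competes with Sox10 at myelin genes, fell to 39.7 ± 3.14 CPM with allopregnanolone, against 51.4 ± 4.35 CPM untreated (SD, n = 5 each, adjusted p = 0.00606, edgeR). All treated libraries were below all untreated ones for Sox5, a separation in this direction that 4.20% of all genes tested showed. The call held when any 1 library was left out and was lost in 3 of 23 alternatives. One of these was the fit within 1 name prefix (log2 fold change -0.33, adjusted p = 0.145, edgeR). Sox5 is also a factor of cortical neurons. Klf4 rose 1.46-fold (adjusted p = 0.0266, edgeR) and lost its call in 6 of 10 cases when 1 library was left out. Bmp4, a secreted inhibitor that newly formed oligodendrocytes make, averaged 10.6 CPM with allopregnanolone and 7.81 CPM untreated (adjusted p = 0.0605, edgeR), and Lingo1 averaged 522 and 462 CPM (adjusted p = 0.197, edgeR).

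Of 20 cofactors and chromatin partners 1 rose and 2 fell, with a median log2 fold change of -0.02. Klf9, a factor induced by thyroid hormone and glucocorticoids, rose 1.30-fold, and Klf6 and the histone deacetylase Hdac2 fell by 0.22 and 0.24 on the log2 scale. Leaving out single libraries ended the call in 7 of 10 cases for Klf9, 4 for Klf6 and 7 for Hdac2. Myt1 averaged 16.9 CPM with allopregnanolone and 20.2 CPM untreated (adjusted p = 0.0698, edgeR).

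Of 18 genes of the WNT pathway 3 rose and none fell, with a median log2 fold change of 0.08, although Tcf7l2 itself did not pass. The receptor Fzd1 averaged 19.3 ± 1.93 CPM with allopregnanolone and 14.0 ± 0.922 CPM untreated (SD, n = 5 each, adjusted p = 0.00475, edgeR). Daam2, which tunes WNT signalling in oligodendrocyte precursors, rose 1.18-fold, and the feedback inhibitor Nkd1 rose 1.39-fold. Nkd1 was at 39.5 and 36 CPM in treated libraries 6 and 7 and 24.4 to 27.7 CPM in treated libraries 8 to 10. It lost its call in 4 of 10 cases with 1 library left out, and its log2 fold change ran from 0.13 to 0.55 over 23 alternatives. The beta-catenin gene Ctnnb1 averaged 377 CPM with allopregnanolone and 421 CPM untreated (adjusted p = 0.0994, edgeR). Axin2, a common readout of the pathway named after its value was seen, averaged 36.1 ± 4.62 CPM with allopregnanolone and 38 ± 2.63 CPM untreated (SD, n = 5 each, adjusted p = 0.609, edgeR).

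The calls of the factors depended on which libraries and covariates entered the fit. Midbrain sums were 28.7 CPM in untreated library 2 and 12 to 18 CPM in the other untreated libraries. Treated libraries 8 and 10, at 23.6 and 25.4 CPM, lay within the untreated range only through untreated library 2. By single genes they were not alike. Of 13 midbrain markers tested 3, Pax5, Barhl1 and Gata2, were higher in every treated library than in any untreated one. Gata2 was at 6.26 and 7.14 CPM in treated libraries 8 and 10, against 3.91 to 4.90 CPM in untreated libraries. Treated library 10 also had the higher Cbln3, Pcp2 and Gabra6 given above. For Olig1, Sox8, Myrf and Nkx6-2 both libraries lay above every untreated one, which follows from the separation of the groups given above. For Olig2 both lay below the highest untreated library, at 70.6 and 75.5 CPM, against 75.9 CPM in untreated library 5. Sox10 was at 99.2 and 119 CPM in treated libraries 8 and 10, against 112 CPM in untreated library 5, so the libraries fell on either side of it. With only these 2 treated libraries left, none of the 9 factors passed in edgeR's test, 4 had an unadjusted p under 0.05 and 8 were still positive. With the midbrain mean as a covariate none passed either, the log2 fold change of Myrf being 0.50 and that of Nkx6-2 0.99, and 7 were positive. There 5 had an unadjusted p under 0.05, namely Olig1, Sox8, Myrf and Nkx6-2 with positive values and Tcf7l2 with a negative one (-0.69). Within the prefix shared by untreated libraries 4 and 5 and all treated libraries, log2 fold changes were 1.09 for Nkx6-2, 0.87 for Myrf, 0.49 for Olig1, 0.42 for Sox10, 0.37 for Olig2, 0.33 for Sox8, 0.34 for Zfp488, 0.27 for Nkx2-2 and 0.14 for Tcf7l2. None of them passed there (edgeR, smallest adjusted p = 0.0803), and 6 had an unadjusted p under 0.05. The part of region, prefix or astrocyte markers in these results was not tested.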

How the data were processed

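RNA of 10 brains was sequenced, 1 library per pup, from NEBNext Ultra II Directional libraries per the labels' protocols. The submitters' processing notes name Partek and mm10; the aligner, counting program, annotation and strand setting: not given in the sources used here. The authors deposited a table of estimated counts (expected counts) whose name calls them normalized, but 86.8% to 87.6% of the values above 0 are whole and library totals differ. They were rounded and analysed as counts. Names, exons and coordinates came from GENCODE M21 (GRCm38), which holds 55230 of the 55471 identifiers, and 241 are unnamed.

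Genes with 10 or more counts in at least 5 of 10 libraries were kept, counts were scaled by TMM, and edgeR 4.0.16 (R 4.3.3) ran its quasi-likelihood test, two-sided, with no covariate and a threshold of 0.05. CPM are counts scaled to the TMM library size. Log2 fold changes are allopregnanolone over untreated, and the SE is its size over the root of F. Library totals ran from 18656827 to 34270699, and the scarcest factor, Nkx6-2, had at least 46 counts per library. Ratios and correlations used log2 CPM with a prior count of 0.5. Nothing says whether pups shared a litter, so p-values measure the spread between these samples. The 23 alternatives included DESeq2 1.42.0 and limma 3.58.1. The fit was checked on simulated counts. The 9 factors, the lists and the rules were chosen with earlier results of these data known. Named genes are the 9 factors, up to 4 genes with the smallest p of each list, and the genes most alike in pattern (8 for the mean, 2 per factor). Some of these genes are not reported here. Figures were drawn with matplotlib 3.10.9.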

Additional observations from a re-analysis of the deposited data

How the results depend on the processing

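The number of the 9 factors called higher was 6 and stayed between 4 and 8 with single libraries left out; without untreated library 5 it was 8. It was 0 within the 1 name prefix, 0 with the midbrain mean as a covariate and 0 without treated libraries 6, 7 and 9, an alternative added after seeing the data; the first and last of these use fewer samples, and otherwise the cause was not tested. Genes of the pathway lists called (26) numbered 12, 3 and 9 under these 3 settings and 19 to 28 with single libraries left out. Over all genes 1926 were called, 1131 higher and 795 lower. These were 105, 80 and 25 within the prefix, 160, 107 and 53 with the midbrain covariate, 837, 536 and 301 with the red blood cell covariate and 371, 225 and 146 without treated libraries 6, 7 and 9. With single libraries left out they ran from 1084 to 2343, 645 to 1360 and 435 to 983. With library totals alone 1451 genes were lower, and the median of all genes was -0.06. Olig1, Sox8, Myrf and Nkx6-2 each passed in 20 of 23 alternatives, missing in the 3 named first, while Sox10 passed in 12, Olig2 in 9, Nkx2-2 in 2, Zfp488 in 1 and Tcf7l2 in 0. Of the 9 factors 4 passed with the Y-linked mean as a covariate, 4 with the red blood cell mean and 5 with library totals alone. Genes of the Y chromosome summed to 0.0862 CPM in untreated library 2 and 0.863 CPM in treated library 10, against 80.3 to 105 CPM elsewhere. Tcf7l2 ran from -0.04 to 0.37 with single libraries left out, turning negative without treated library 6, and was negative without treated libraries 6, 7 and 9 (-0.45), with the midbrain covariate (-0.69) and with the red blood cell covariate (-0.35), and Nkx2-2 with the midbrain covariate (-0.03). The difference of Myrf to Olig2 was 0.47 to 0.58 with single libraries left out and 0.45 without treated libraries 6, 7 and 9 (exact permutation p = 0.0952). There the ratios in treated libraries 8 and 10, 0.07 and 0.04, were still above every untreated one (at most -0.19). So few libraries allow few assignments, which limits how small this p can be. No paired analysis was possible because the groups share no replicate number.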
